A study of Mus musculus with 4 samples.

Results

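Plasminogen activation and coagulation genes were followed in 4T1Ch9 tumors after 7 days of vehicle or MEKi. The 9 genes listed were Plau, Plat, Plaur, Serpine2, Serpinb2, F3, F10, Thbd and Tfpi2, and their members were all probe sets with that gene as the only symbol in the platform annotation. This gave 12 probe sets of 8 genes, out of 45037 tested probe sets and 17097 genes with 1 symbol. Plau and Plat have 2 probe sets each, F10 has 3, and the other 5 genes have 1. No probe set of Serpine2 is named in the annotation table used here. A supplementary list of genes chosen on these same samples pairs a probe set with Serpine2, and it is not counted among the 12. Its levels are given as a description with no call, and counts and medians that include it say so, with the median also given without it.

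Total RNA of whole tumors was measured on Affymetrix mouse expression arrays, 2 labelled vehicle and 2 labelled with trametinib (MEKi), which blocks the kinases MEK1 and MEK2. 4T1Ch9 is a cherry-tagged triple-negative mammary carcinoma line of Balb/c origin, and female wild-type Balb/c hosts aged 6 to 8 weeks received 50000 of these cells in a mammary fat pad. Tumors were established for 10 days, and the mice then received vehicle (PEG 400/Solutol) or trametinib at 1 mg/kg daily by oral gavage for 7 days. All groups share the tumor line, the host strain and the vehicle solution. The sources do not say how many tumors an array holds, or whether arrays of 1 label are from different animals. The tests therefore rest on a spread between arrays that need not be a spread between animals. Values are log2 expression as deposited, after RMA and quantile normalization, and 1 unit is a doubling. Paired values are given with array 1 before array 2 of each label.

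Urokinase (Plau) and tissue plasminogen activator (Plat) are serine proteases that cut plasminogen into plasmin, which dissolves fibrin and degrades extracellular matrix. Urokinase does so mostly on the cell surface, bound to its receptor (Plaur), and serpins such as Serpine2 and Serpinb2 inactivate the activators. Coagulation runs beside it, started by tissue factor (F3), carried on by factor X (F10) and held back by thrombomodulin (Thbd) and Kunitz-type inhibitors such as Tfpi2. In carcinomas, urokinase, its receptor and tissue factor are known for their part in invasion and metastasis, and they are made by tumor cells as well as by macrophages, fibroblasts and endothelium.

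The 4 arrays did not resemble each other by label. Pearson's r across the 45037 probe sets, which are not independent replicates, was 0.992 between MEKi 1 and vehicle 2 and 0.978 between MEKi 2 and vehicle 1, against 0.927 between the MEKi arrays and 0.959 between the vehicle arrays. B cell markers had medians of 9.70 in MEKi 1 and 9.48 in vehicle 2, and of 4.17 and 4.15 in the other two. MAPK output genes, the targets and feedback regulators of the inhibited pathway, had medians of 7.98 and 10.17 in the arrays labelled MEKi and of 9.67 and 8.71 in those labelled vehicle. The label of MEKi 2 therefore goes against these genes. Whether labels of arrays were exchanged is not settled by the sources used here, so a difference by label may not be a difference by treatment, and its direction holds for the labels as deposited only. Each array is named below by its label. The carcinoma was visible in all arrays, with the keratin gene Krt8 between 10.54 and 12.92, although Krt19 and Epcam read 4.52 and 6.54 in MEKi 2 against at least 8.91 and 8.79 elsewhere. The 25th percentiles of the arrays lay between 3.85 and 3.88, and values near them are close to the floor.

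Promoters were read for the members to show what sequence they share apart from function, since genes of this system are known targets of AP-1, the transcription factor family downstream of ERK. RefSeq promoters (build GRCm38.p6) were found for 6 of the 9 genes, Plaur, Serpine2, Serpinb2, F3, F10 and Tfpi2. In the 250 bases before each start, both strands were searched for 5 motifs, and matches of 1 motif may overlap. The AP-1 motif was searched as TGANTCA and the ETS motif as CCGGAA. The letters of the GC box were GGGCGG and those of the TATA box TATAAA. The CRE was searched as TGACGTCA. The AP-1 letters were found at 1 or more listed starts for 4 of the 6 genes, and 6.75% of 32851 promoters of the same length hold them. That share is counted by window and not by gene, and Serpinb2 and Tfpi2 have 2 and 3 windows. Windows of the 4 genes, 1 for each, are printed 5′ to 3′ on the gene's strand, with every match in capitals. They lie at chr7:24462233-24462482 (Plaur, plus strand), chr1:107511173-107511422 (Serpinb2, plus strand, the first of 2 listed starts), chr3:121723287-121723536 (F3, plus strand) and chr6:3968376-3968625 (Tfpi2, minus strand, 1 of 3 listed starts).
Plaur: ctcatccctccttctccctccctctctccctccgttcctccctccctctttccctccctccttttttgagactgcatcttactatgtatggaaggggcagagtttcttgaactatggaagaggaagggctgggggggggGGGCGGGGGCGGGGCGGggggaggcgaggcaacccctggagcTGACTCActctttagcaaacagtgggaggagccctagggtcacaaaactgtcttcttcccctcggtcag
Serpinb2: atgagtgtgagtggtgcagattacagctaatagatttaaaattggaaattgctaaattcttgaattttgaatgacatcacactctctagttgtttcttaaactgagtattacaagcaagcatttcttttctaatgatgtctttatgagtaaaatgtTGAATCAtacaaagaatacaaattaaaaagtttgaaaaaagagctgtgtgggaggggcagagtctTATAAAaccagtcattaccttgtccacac
F3: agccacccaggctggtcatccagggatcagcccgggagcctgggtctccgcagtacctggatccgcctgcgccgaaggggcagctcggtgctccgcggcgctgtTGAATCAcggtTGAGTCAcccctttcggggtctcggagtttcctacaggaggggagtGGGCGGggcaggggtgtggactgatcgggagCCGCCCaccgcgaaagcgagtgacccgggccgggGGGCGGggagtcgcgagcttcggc
Tfpi2: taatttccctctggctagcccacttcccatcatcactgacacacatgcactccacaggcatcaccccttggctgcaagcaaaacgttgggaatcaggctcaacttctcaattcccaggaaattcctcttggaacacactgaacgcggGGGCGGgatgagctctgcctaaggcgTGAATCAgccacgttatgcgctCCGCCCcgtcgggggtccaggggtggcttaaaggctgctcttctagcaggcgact
In Plaur the AP-1 match begins 69 bases before the start and follows 3 GC boxes, and in Serpinb2 it begins 94 bases before the start, with a TATA box at 29. F3 holds 2 AP-1 matches, at 146 and 135 bases, and Tfpi2 holds 1 at 77 bases. Serpine2 holds 6 GC boxes, a motif found in 32.7% of all promoters, and F10 no match to any of the 5 motifs. ETS, CRE and TATA box letters are in 12%, 1.55% and 12.4% of all promoters, and in none of these 6 genes for ETS and CRE. A match describes the letters of the window and does not show binding.

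**Figure D1:**
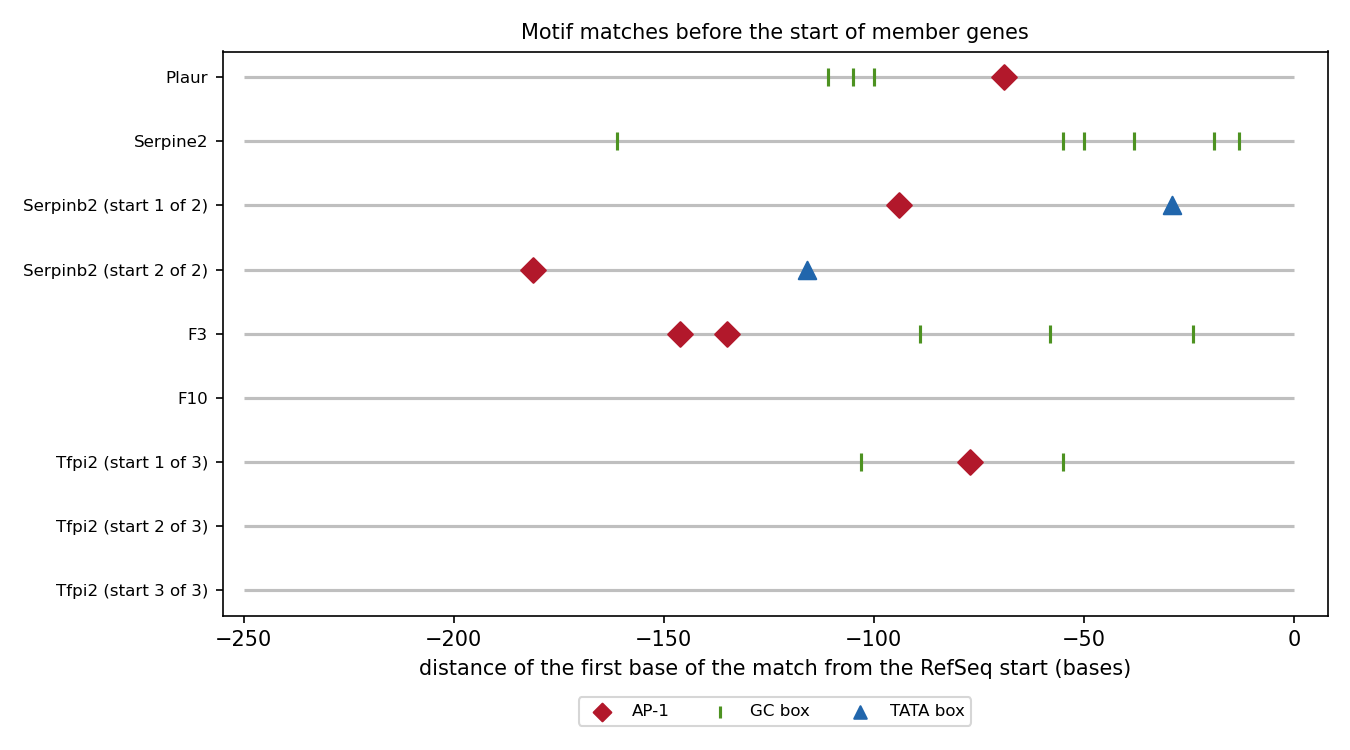
Position of motif matches in the 250 bases before each RefSeq start (horizontal axis, bases; 1 row per start). Diamonds are AP-1 matches, ticks GC boxes and triangles TATA boxes, and the AP-1 diamonds stand in Plaur, Serpinb2, F3 and 1 of 3 starts of Tfpi2.

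The plasminogen activators and the urokinase receptor were lowest in the array labelled MEKi 1. Plau read 9.30 and 10.27 in the MEKi arrays, against 11.06 and 9.83 for vehicle (probe set 1422139_PM_at). Its second probe set, 1422138_PM_at, gave the same order, with 6.60 and 8.51 in the MEKi arrays, against 9.10 and 7.06 for vehicle. Both probe sets therefore placed 1 vehicle array above and 1 below MEKi 2, and the groups overlapped. Plaur, the receptor that holds urokinase at the cell surface, read 8.02 and 8.70 in the MEKi arrays, against 9.51 and 8.38 for vehicle, again in this order. Plat read 6.56 and 8.40 in the MEKi arrays, against 8.18 and 7.23 for vehicle (1415806_PM_at), so that MEKi 2 was the highest array. The other probe set of Plat, 1458553_PM_at, lay between 3.52 and 3.93, at the floor of the arrays, and gives no order.

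The serpins did not share 1 pattern. Serpine2, which encodes protease nexin-1, an inhibitor of thrombin, urokinase and tissue plasminogen activator, read 12.09 and 13.49 in the MEKi arrays, against 13.48 and 12.45 for vehicle. It was thus low in the arrays where Plau, Plaur and Plat were low, and MEKi 2 and vehicle 1 differed by 0.01. Serpinb2, an inhibitor of urokinase that is known from macrophages, read 3.75 and 3.63 in the MEKi arrays and 3.75 in vehicle 1, all near the floor, and 5.04 in vehicle 2. Its signal above the floor thus rests on 1 array of the vehicle group.

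Among the coagulation genes, F10, Tfpi2 and Thbd were lowest in the array labelled MEKi 2. F10, whose active form converts prothrombin to thrombin, read 6.80 and 6.31 in the MEKi arrays, against 7.93 and 6.83 for vehicle (1449305_PM_at). The groups did not overlap for this probe set, but MEKi 1 and vehicle 2 lay within 0.03 of each other (difference −0.03). The 2 dimmer probe sets of F10 were also lowest in MEKi 2 and highest in vehicle 1, with 4.27 and 5.74 for 1418993_PM_s_at and 4.07 and 5.51 for 1418992_PM_at. In 1418992_PM_at the arrays MEKi 1 (4.96) and vehicle 2 (4.51) changed places, and the groups overlapped.

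Tfpi2, a Kunitz-type inhibitor of plasmin and of the complex of tissue factor with factor VIIa, read 6.15 and 4.86 in the MEKi arrays, against 7.18 and 6.62 for vehicle. Both MEKi arrays lay below both vehicle arrays, and the MEKi arrays themselves were 1.29 apart. Thbd, the endothelial receptor that turns thrombin towards activation of protein C, read 8.25 and 6.50 in the MEKi arrays, against 7.64 and 8.27 for vehicle. Its arrays MEKi 1 and vehicle 2 were alike within 0.03 (difference −0.02) and MEKi 2 stood below the rest. F3, the cell surface initiator of coagulation, hardly varied, with 7.19 and 6.81 in the MEKi arrays, against 6.98 and 6.89 for vehicle. Its range of 0.37 compares with a median range of 1.56 over the 12 member probe sets and of 0.51 over all tested probe sets. Among probe sets with a mean over 4.5, the median range was 1.69 for the 10 members and 0.74 for all tested.

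**Figure D2:**
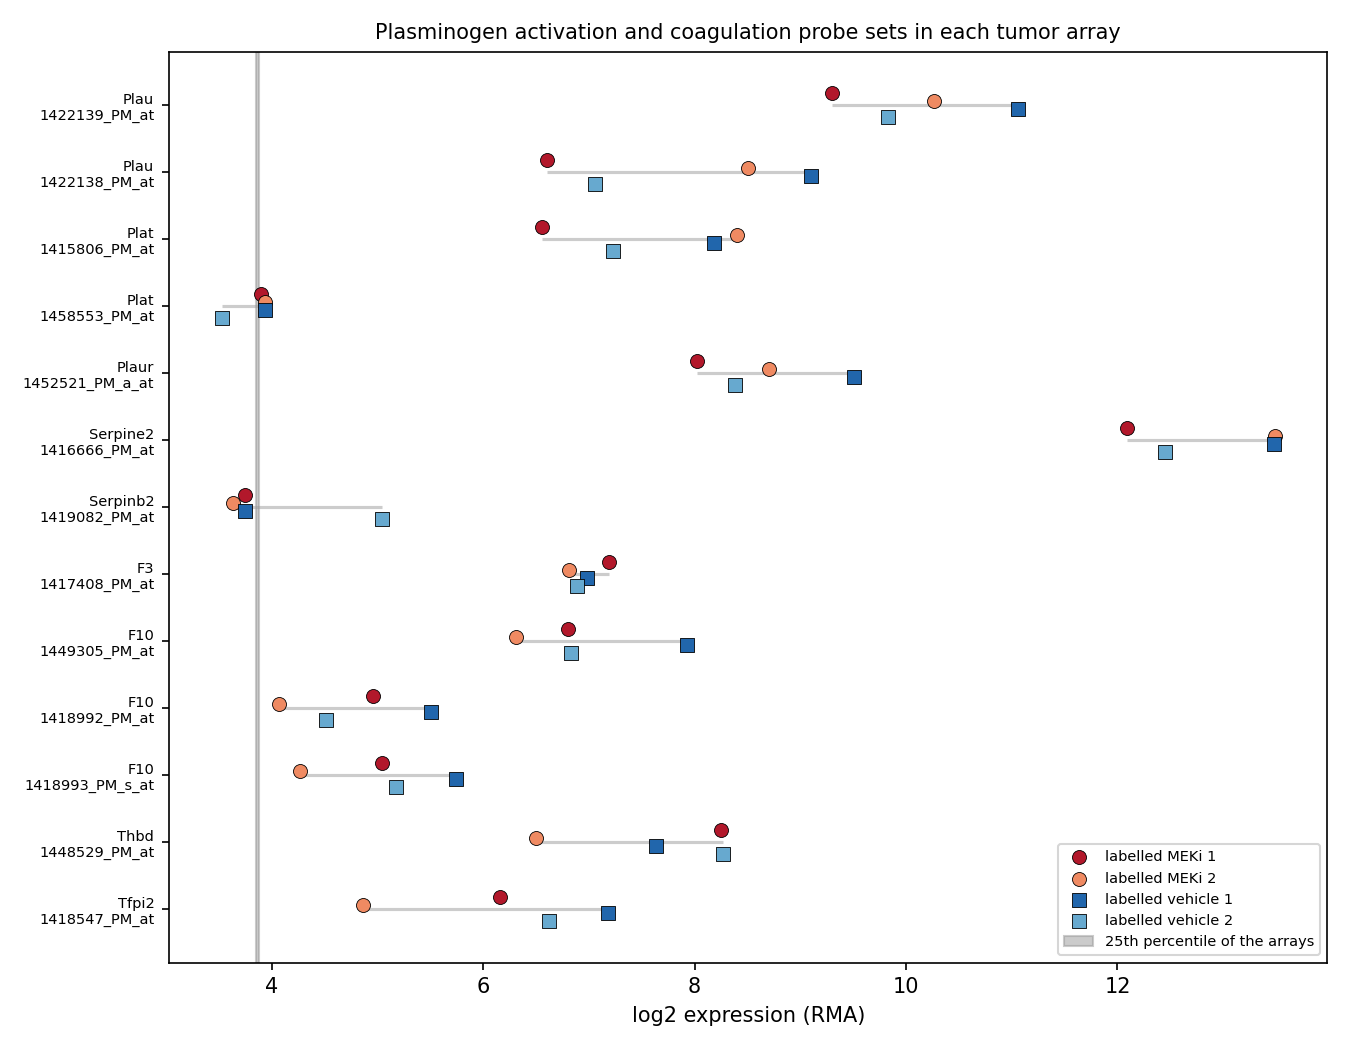
Log2 expression (RMA, horizontal axis) for the 12 member probe sets and that of Serpine2. Arrays with a MEKi label are drawn as circles, vehicle ones as squares, slightly apart in height, with grey lines for the range and a grey band for the 25th percentiles of the arrays. Plau lies between 9.30 (MEKi 1) and 11.06 (vehicle 1), and F3 between 6.81 and 7.19.

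The comparison the design asks for, MEKi against vehicle by the deposited labels, called no member, and its directions are subject to the doubt about these labels. A call by limma needed an adjusted p under 0.1 (two-sided, Benjamini-Hochberg over 45037 probe sets), an unadjusted p under 0.05 and more than a 1.5-fold difference. Of the 12 member probe sets 0 were called, and 0% of all tested probe sets were (0 of 45037, lowest adjusted p = 1). The paper reports genes altered between MEKi and vehicle at these same thresholds, so the fit by deposited labels did not reproduce that result. The reason for the difference was not tested. At an unadjusted p under 0.05 there were 0 members, against 0.901% of all probe sets. Tfpi2, with the largest difference under the labels as deposited, had a log2 fold change of −1.39 (SE 0.54, limma adjusted p = 1), with a 95% interval from −2.93 to 0.15. F10 followed at −0.82 (SE 0.47, interval −2.17 to 0.52, limma adjusted p = 1). Plau had a log2 fold change of −0.66 (SE 0.59, limma adjusted p = 1) and an interval from −2.36 to 1.04. For Plaur it was −0.58 (interval −2.04 to 0.87), for Thbd −0.58 (−2.57 to 1.41) and for Plat −0.22 (−2.44 to 1.99). F3 had the narrowest interval of the genes above the floor, −0.54 to 0.67 around 0.07.

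These intervals hold large changes in either direction for most members, so the arrays do not show that the genes were alike in both groups. For Plau and Thbd the spread within a label was as large as the difference between labels. The means of Plau were 9.78 ± 0.68 (SD, n = 2) for MEKi and 10.44 ± 0.87 (SD, n = 2) for vehicle. For Thbd they were 7.37 ± 1.23 and 7.95 ± 0.45 (SD, n = 2 each). With the brightest probe set for each gene, 8 of 9 genes, Serpine2 included, had a lower mean in the MEKi arrays, and the median log2 fold change was −0.58, which centring on tumor epithelial genes turned to 0.32 while moving the median of all probe sets from 0.01 to 0.91. Without Serpine2 the median was −0.62. Over all genes 47.8% were lower. The 8 include Serpinb2, which rose above the floor in vehicle 2 only. They also include Plat and Serpine2, whose differences turned positive without MEKi 1 or without vehicle 1, and Thbd, whose difference did so without MEKi 2. The median of the 9 genes was −0.04 without the array vehicle 1 and −0.24 without MEKi 1, so its size rests most on vehicle 1 and in part on MEKi 1.

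In 3 of 12 member probe sets both MEKi arrays lay below both vehicle arrays, namely Tfpi2 and 2 of F10, which share a gene. In all tested probe sets this held for 9.86%. In 0 of 12 both MEKi arrays lay above both vehicle arrays, which held for 12.1% of all. The array vehicle 1 was the highest for 8 of 12 member probe sets, against 21.6% of all probe sets, and the lowest for 0, against 24% of all. MEKi 2 was the lowest for 7 and MEKi 1 for 4, where 27.1% and 27.6% of all probe sets were lowest in these arrays. Probe sets of 1 gene are counted singly here, so the 8 hold every probe set of Plau and of F10. They also hold the floor-level Plat 1458553_PM_at, which read 3.9315 in vehicle 1 and 3.9305 in MEKi 2. The 7 hold every probe set of F10, and Serpinb2, which was near the floor in MEKi 2 (3.63).

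**Figure D3:**
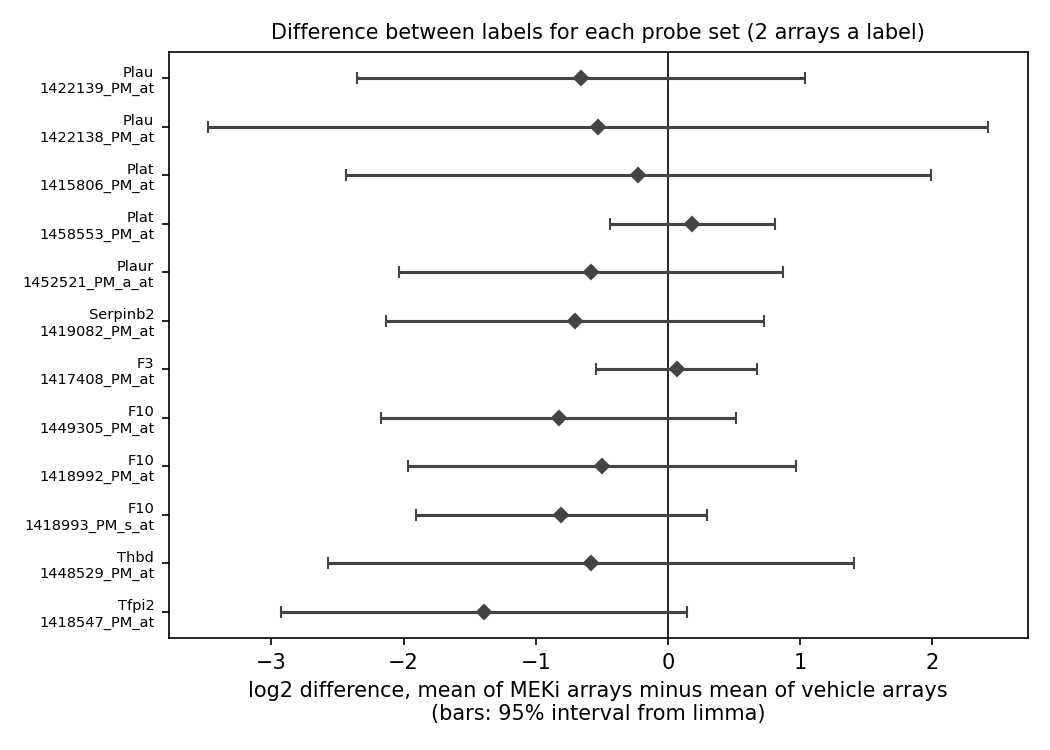
Log2 difference between the mean of the MEKi arrays and the mean of the vehicle arrays (horizontal axis) for the 12 member probe sets, with 95% intervals from limma (2 arrays a label). Every interval includes 0, and that of Tfpi2 runs from −2.93 to 0.15.

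Single arrays were also set side by side, without a test, for all pairs of a MEKi and a vehicle array. Between MEKi 1 and vehicle 1, 6 of 12 member probe sets lay more than 1 log2 unit apart, against 12.6% of all probe sets, and all 6 were lower in MEKi 1. These were both probe sets of Plau (−1.76 and −2.50), Plat (−1.62), Plaur (−1.49), the brightest of F10 (−1.13) and Tfpi2 (−1.03). Between MEKi 2 and vehicle 1 it was 5 of 12, against 5.11% of all, and all 5 were lower in MEKi 2. Here the genes were F10 with all 3 probe sets (−1.44 to −1.62), Tfpi2 (−2.32) and Thbd (−1.14), whereas Plau was at −0.79 and Plat at 0.22. Plau, Plaur, F10 and Tfpi2 were below vehicle 1 in both MEKi arrays, Plau and Plaur more so in MEKi 1 and F10 and Tfpi2 more so in MEKi 2. Plat was below it in MEKi 1 only and Thbd in MEKi 2 only, where Thbd in MEKi 1 was 0.61 higher.

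Against vehicle 2 the picture was different. Between MEKi 1 and vehicle 2, 1 of 12 lay more than 1 unit apart (Serpinb2, −1.29), against 0.935% of all probe sets, and Plau was at −0.53, Plaur at −0.36 and Plat at −0.67. Between MEKi 2 and vehicle 2 it was 5 of 12, against 14.2% of all. Of these, the dimmer probe set of Plau (1.45) and Plat (1.18) were higher in MEKi 2, and Serpinb2 (−1.41), Thbd (−1.77) and Tfpi2 (−1.76) were lower. Arrays of 1 label differed from each other too. Between the vehicle arrays 5 of 12 lay more than 1 unit apart, against 9.95% of all, with Plau and Plaur higher by 1.23 and 1.13 in vehicle 1. Between the MEKi arrays it was 4 of 12, against 16.6% of all, with Plat at −1.84 and Thbd at 1.75 in MEKi 1 relative to MEKi 2.

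Cell type markers moved with both patterns. Fewer cells of a type and less RNA per cell cannot be told apart in these bulk tumors. Markers of macrophages and monocytes (10 of 10 measured) had medians of 9.66 and 10.39 in the MEKi arrays, against 10.92 and 10.01 for vehicle, the same order as Plau and Plaur, and 9 of 10 were lowest in MEKi 1. Blood vessel endothelial markers (10 of 10) had medians in that order too, at 8.01, 8.93, 9.02 and 8.29, with 6 of 10 lowest in MEKi 1 and 3, among them Pecam1, in MEKi 2. B cell, T cell and lymph node markers ran the other way and were highest in MEKi 1 and vehicle 2, with T cell medians (9 of 10 measured) of 9.80 and 9.71 there and of 5.10 and 6.01 in MEKi 2 and vehicle 1. MAPK output genes (16 of 16 measured) had medians in the order of Plat and Serpine2, and 14 of 16 were lowest in MEKi 1 and 12 highest in MEKi 2.

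Several marker lists had their lowest median in MEKi 2, as F10, Thbd and Tfpi2 had their lowest level. Except in the T cell list, not all of their genes did. The T cell and lymph node lists had medians of 5.10 and 4.38 there, with 9 of 9 and 6 of 7 measured genes lowest in it. As for Thbd, the medians of both lists were lower in vehicle 1 than in MEKi 1 and vehicle 2. Tumor epithelial markers (12 of 12 measured) had a median of 6.46 in MEKi 2 and of 7.14 to 7.76 in the other arrays. Only 6 of these 12 were lowest in MEKi 2, and the other 6, with Krt8 and Krt18 as the brightest of the list, were lowest in MEKi 1. Fibroblast and pericyte markers (10 of 10) had a median of 9.07 in MEKi 2 and of 9.63 to 10.54 elsewhere. Of these, 7 of 10 were lowest in MEKi 2, whereas Dcn (11.66), Pdgfra (8.49) and Pdgfrb (9.82) were highest there. Adipocyte markers (7 of 8 measured) had a median of 6.49 in MEKi 2 against 9.27 to 10.14, and 6 of 7 were lowest in it. By label, 0 of these markers were called. At an unadjusted limma p under 0.05 there were 2 of 12 tumor epithelial, 1 of 10 fibroblast, 3 of 7 adipocyte and 0 of 10 macrophage markers. Over all genes, with the brightest probe set of each and Serpine2 included, 210 of 17098 passed that threshold. The median differences were −1.05 for tumor epithelial, −0.83 for fibroblast, −1.93 for adipocyte and −0.65 for macrophage markers. Neutrophil markers (8 of 10) mostly ran the other way, with medians of 7.41 and 7.15 in the MEKi arrays and of 5.34 and 6.0 in the vehicle arrays (0 called, 4 at an unadjusted limma p under 0.05). Their means were higher in the MEKi arrays for 7 and lower for 1, Mmp9. Mmp9 read 7.37 and 8.89 in the MEKi arrays, against 11.23 and 9.39 for vehicle. Skeletal muscle markers had medians near the floor, from 3.94 to 4.34, and 5 of 8 were under 4.5 in all arrays. Platelet markers had medians from 4.10 to 5.25. The part of each cell type in the levels of the members was not tested.

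**Figure D4:**
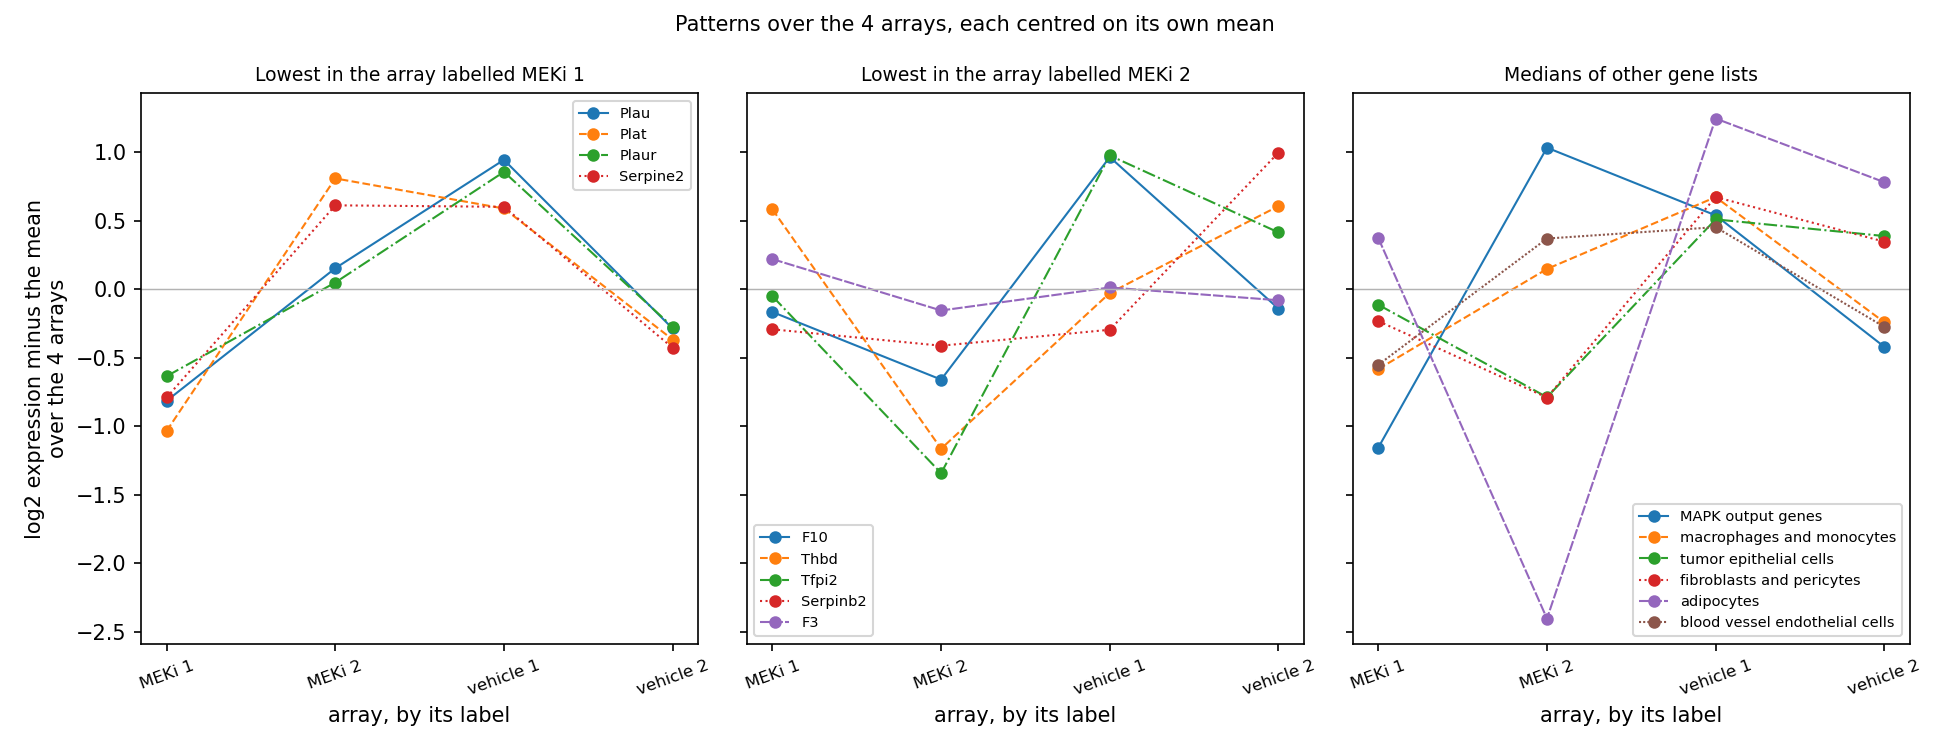
Log2 expression in each array minus the mean over the 4 arrays (vertical axis), for the brightest probe set of each gene (left and middle) and for the median of 6 other gene lists (right); lines join the values of 1 gene or list and imply no order of the arrays. Plau, Plat, Plaur and Serpine2 are lowest in MEKi 1, and F10, Thbd, Tfpi2, Serpinb2 and F3 in MEKi 2.

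Other genes of plasminogen activation were measured for 13 of 16 listed, and 0 were called by label (0 also at an unadjusted p under 0.05). Their means were higher in the MEKi arrays for 5 and lower for 8, where 47.8% of all genes were lower. Plasminogen itself (Plg), made by the liver, was at the floor, between 3.54 and 3.70. Anxa2 and S100a10, which form the annexin A2 complex that binds plasminogen and tissue plasminogen activator on cells, were lower in MEKi 1 and vehicle 2 than in the other arrays. Anxa2 read 11.47 and 12.50 in the MEKi arrays, against 12.85 and 11.98 for vehicle, the order of Plau. The genes with the largest range in this list were Serping1 (3.66), Serpini1 (3.26), St14 (2.21) and Anxa2 (1.38). Serping1, which encodes the C1 inhibitor, read 7.70 in MEKi 2 and 10.86 to 11.36 in the other arrays. Serpini1, which encodes neuroserpin, an inhibitor of tissue plasminogen activator, read 7.60 in MEKi 1 and 7.15 in vehicle 2, and 4.41 and 4.34 in MEKi 2 and vehicle 1. St14, which encodes matriptase, an activator of the urokinase precursor, was lowest in MEKi 2 at 5.62 and read 6.89 to 7.83 elsewhere.

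Of 21 other coagulation genes 20 were measured, and 0 were called by label. Their means were higher in the MEKi arrays for 9 and lower for 11. The 1 gene at an unadjusted limma p under 0.05, where 210 of 17098 genes passed, was Fgb, which encodes a fibrinogen chain. It read 3.45 and 3.49 in the MEKi arrays and 4.04 and 4.30 in the vehicle arrays, near the floor. F5, the cofactor of factor X, read 5.63 and 7.47 in the MEKi arrays, against 10.07 and 8.0 for vehicle, and F7, the protease that tissue factor binds, read 7.28, 4.80, 8.77 and 7.77 in the same order of arrays. For both genes the MEKi arrays lay below the vehicle arrays, with limma log2 fold changes of −2.48 and −2.23 (adjusted p = 1 for each). F7 thus shared the order of Tfpi2 and F10. The others with a wide range were Serpina10 (4.89), which encodes an inhibitor of factor X and was high in MEKi 1 and vehicle 2, and F13a1 (2.38), the fibrin cross-linking enzyme also known from macrophages, at 9.22 in MEKi 1 and 11.60 in vehicle 1. Tfpi, the inhibitor related to Tfpi2, read 6.74 in MEKi 2 and 8.20 to 8.34 in the other arrays.

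Among 10 partners and clearance receptors of the urokinase receptor, 0 were called and 1 had an unadjusted p under 0.05 (Mrc2, log2 fold change −0.94, limma adjusted p = 1), against 210 of 17098 genes. The largest ranges were those of Vtn (4.06), Itgam (3.08), Itga3 (2.65) and Lrp1 (1.63). Itgam, the integrin chain of myeloid cells that is also in the macrophage list, read 5.57 and 7.57 in the MEKi arrays, against 8.65 and 6.34 for vehicle, and Itga3 read 7.62, 10.11, 10.27 and 8.71, both in the order of Plau. Lrp1, the endocytic receptor that clears inhibited urokinase, read 10.00 and 10.13 in MEKi 1 and vehicle 2, and 11.63 and 11.41 in MEKi 2 and vehicle 1. Vtn, which encodes the matrix protein vitronectin that binds the receptor, ran the other way, with 8.17 for MEKi 1, 7.70 for vehicle 2 and the floor for the other two. Of the thrombin receptors F2r was highest in MEKi 2 at 11.74, with a range of 0.74, and F2rl2 and F2rl3 lay between 4.53 and 5.05.

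Genes whose profile was most like that of Plau and Plaur were found by the root mean square difference of log2 values over the 4 arrays, each gene centred on its own mean. The 5 nearest to Plau were Prex2 (0.04), Fcgrt (0.06), Il13ra1 (0.07), Ecm1 (0.08) and Ms4a6c (0.08). The 5 nearest to Plaur were G6pd2 (0.03), Klf10 (0.05), Tekt2 (0.05), Acsl4 (0.05) and Myadm (0.06), of which Tekt2 lay near the floor in MEKi 1 (3.66). Plau and Plaur themselves differed by 0.11, and Plaur ranked 21 among the named genes by likeness to Plau. Plat stood further off (0.39, rank 948), then F10 (0.52), F3 (0.72), Tfpi2 (0.91), Serpinb2 (0.97) and Thbd (1.16). These ranks are a description over 4 arrays that also differ in their cell type markers.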

How the data were processed

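RNA on 4 arrays, 2 labelled vehicle and 2 labelled MEKi, was analysed from 1 table of log2 expression values that the authors deposited, 1 value per probe set and array. The authors made them with RMA in the AFFY package in R 3.2.3, with quantile normalization. The version of RMA, a filter and any pooling are not given in the sources used here. Quantile normalization gives all arrays nearly 1 distribution (medians 4.98 to 5.14), so differences are relative to other genes of the array. Precision is limited by there being 4 arrays.

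Of 45141 probe sets, 104 controls were left out. Of 45037 tested, 28898 carried 1 symbol. Those with several (551) got no name, and 15588 have no entry in the annotation table used. The RefSeq gene table held the Entrez identifiers of 28689, with 0 changes of symbol. The brightest probe set by mean stood for a gene. Each probe set was fitted by label with limma 3.58.1 in R 4.3.3 (lmFit, eBayes), with adjustment over all probe sets and thresholds as the paper applied them. A run of the fit on simulated data was a check of the code. Its result at the real spread between arrays is not given here. The 9 genes, the 17 lists and the tests were chosen with earlier results of these data known, so no list is independent evidence. Named genes were all members and the 5 genes most like Plau and Plaur. From each pathway list came up to 4 genes with the largest range when none was called, and from marker lists up to 2. The genes Plg, S100a10, Fgb, Tfpi, Mrc2, Epcam, Krt18, Pecam1, Dcn, Pdgfra, Pdgfrb and Mmp9 were added after their values were seen. Alternatives were another adjusted p (0.05), an intensity trend, no moderation, leaving out the dimmest probe sets (a share of 0.25), centring on reference or tumor epithelial genes, a replicate block, each array left out, and 1 row per gene. Promoters were taken as given in the gene's direction, which the position of TATA boxes on minus-strand entries bore out (1.86% against 0.38% in the reverse direction). Python 3.11.15 with pandas 2.3.3, numpy 2.4.6 and matplotlib 3.10.9 made tables and figures.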

Additional observations from a re-analysis of the deposited data

How the results depend on the processing

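No member was called by limma under any alternative run, with or without Serpine2. Over all probe sets 0 were called too, except after centring on tumor epithelial genes, where 20 were. That centring moved the median of all probe sets from 0.01 to 0.91 and the median of the 9 genes to 0.32, which is still below the median of all probe sets. It turned the log2 fold change of Plau to 0.24 and 0.37 (2 probe sets), Plat to 0.68, Plaur to 0.32, Serpine2 to 0.72, Serpinb2 to 0.20, Thbd to 0.32 and F10 to 0.075, 0.40 and 0.094, while Tfpi2 was −0.49. Under it 0 members had both MEKi arrays below both vehicle arrays and 2 had them above, and after centring on reference genes 1 had them above. The share of all probe sets under these centrings was not computed, so these counts have no background to be read against. Leaving out each array in turn gave a median between −0.75 and −0.044. The same gave a log2 fold change between −1.14 and 0.70 for Plat (1415806_PM_at), −0.020 and 0.39 for its other probe set, −0.88 and 0.52 for Serpine2, −0.12 and 0.25 for F3, −0.99 and 0.0027 for F10 (1418992_PM_at), −1.55 and 0.49 for Plau (1422138_PM_at) and −1.45 and 0.29 for Thbd. With 1 array left in a group, it is assumed to vary like the other group. Tfpi2, Plaur, Serpinb2 and the brightest probe sets of Plau and F10 stayed negative without any 1 array, but for some of them only just. Without vehicle 1, Plaur was at −0.019 and the brightest probe set of Plau at −0.044. Without vehicle 2, Serpinb2 was at −0.057. The smallest sizes for F10 and Tfpi2 were −0.27 (without vehicle 1) and −0.75 (without MEKi 2).

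The labels do not say that equal numbers mark pairs. Deviations of same-numbered arrays from the group means correlated at −0.76, and a fit with the replicate number as a block called 0 probe sets and 0 members. The crossed pairing, added after seeing the data, called 0 and 0. Without Serpine2, also added later, the median was −0.62, and without genes near the floor −0.58. Probe sets near the floor (Serpinb2 in 3 arrays, Plat 1458553_PM_at in all) carry no measurable decrease.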
